A study of Mus musculus with 2 samples.

Results

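The regions occupied by the histone variant macroH2A1.1 were examined around 5 genes of cell adhesion and extracellular matrix, Fn1, Fmod, Thbs1, Itga11 and Col1a1. For each gene, every enriched region that overlapped its span in the mouse genome build mm9, or the 100 kb on either side, was taken. For a given gene the choice of regions used position alone, and it gave 62 of the 50887 regions in the deposited list. The genes themselves were chosen with earlier results known. The study had named them among genes regulated in opposite directions by knockdown of macroH2A1.1 and of the other splice isoform. It had also shown macroH2A1.1 profiles at some of them. Comparisons with the rest of each chromosome therefore describe selected genes and not a set picked without regard to macroH2A1.1. The list comes from chromatin immunoprecipitation and sequencing (ChIP-seq) in C2C12 cells, an established mouse muscle precursor line. The ChIP group was 1 library made with an antibody to macroH2A1.1, and the control group was 1 library of input chromatin that saw no antibody. Both libraries were labelled wild type and were from the same line. The source field of the labels says myoblast, whereas the short sample descriptions carry the letters DM, the protocol's abbreviation for the low-serum medium in which these cells form myotubes. The study's own text places the ChIP-seq profile in differentiated myotubes. The libraries hold no expression of a marker gene by which the state could be checked. With 1 library in each group, no value has an error between replicates, and the intervals given are 95% exact (Clopper-Pearson) intervals that cover counting error only.

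MacroH2A1 replaces the canonical histone H2A in some nucleosomes and carries a large macrodomain outside the nucleosome core. The splice isoform macroH2A1.1 is the one whose macrodomain binds ADP-ribose. MacroH2A proteins are known for broad domains of low enrichment rather than for sharp peaks. The genes considered here act at the surface of the muscle cell. Fn1 encodes fibronectin and Col1a1 encodes a chain of type I collagen, both fibrous components of the matrix. Thbs1 encodes thrombospondin 1, a matricellular glycoprotein, and Fmod encodes fibromodulin, a small leucine-rich proteoglycan that binds collagen fibrils. Itga11 encodes integrin alpha 11, the subunit of a collagen receptor. The question was where macroH2A1.1 regions lay relative to these genes, and whether the loci differed from each other and from the rest of their chromosomes.

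The start of 2 genes, Fmod and Itga11, was covered or met by a region. Their promoters are shown because no promoter sequence was available for Fn1, Thbs1 and Col1a1, so the regions did not decide the choice. The sequences are from RefSeq (GRCm38.p6, plus strand in both), run from 250 bases before the gene start to 50 after it, and were matched by symbol for 2 of the 5 genes. The Fmod promoter is chr1:134037004-134037303 and the Itga11 promoter is chr9:62677605-62677904 in that build. Capitals mark the E-box CANNTG, the element that myogenic basic helix-loop-helix factors bind. The pattern CANNTG matches on both strands alike, although the marked sites CATCTG and CAGGTG are not themselves palindromes.
Fmod: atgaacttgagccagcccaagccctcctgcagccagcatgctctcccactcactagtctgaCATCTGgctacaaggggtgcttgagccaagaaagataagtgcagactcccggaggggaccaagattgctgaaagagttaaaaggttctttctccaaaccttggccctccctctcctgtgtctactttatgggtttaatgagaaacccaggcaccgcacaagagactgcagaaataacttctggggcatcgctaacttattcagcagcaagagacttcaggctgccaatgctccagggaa
Itga11: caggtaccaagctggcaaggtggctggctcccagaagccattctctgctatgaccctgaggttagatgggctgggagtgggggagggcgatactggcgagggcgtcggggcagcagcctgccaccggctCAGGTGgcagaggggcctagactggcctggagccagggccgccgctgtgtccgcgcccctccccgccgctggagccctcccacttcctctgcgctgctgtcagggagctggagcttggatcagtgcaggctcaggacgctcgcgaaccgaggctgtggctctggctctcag
Each promoter held 1 E-box, CATCTG beginning 189 bases before the start of Fmod and CAGGTG beginning 121 bases before the start of Itga11. An E-box was found in 72.3% of the 32851 promoters of the same length, so its presence does not set these genes apart. Neither promoter held CAGCTG (found in 16.3% of promoters), TATAAA (13.6%) or GGGCGG (35.7%), each searched on both strands. The promoters differed in base composition. That of Fmod had 3 CpG dinucleotides and a GC content of 51.0%, and that of Itga11 had 16 and 68%. Over all promoters the median was 7 CpG dinucleotides, with quartiles at 3 and 20, and a GC content of 52.7%.

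The 5 windows spanned 1221.0 kb, of which 293.6 kb (24.0%) was covered by regions. The covered share was 63.8% around Fmod, 29.7% around Thbs1, 14.3% around Itga11, 10.5% around Fn1 and 10.00% around Col1a1. Without the Fmod locus the remaining windows were covered at 15.7%. In the rest of the respective chromosomes the covered share lay between 8.54% on chromosome 2 and 11.0% on chromosome 11. Fmod and Thbs1 were thus 6.63 and 3.48 times as covered as the rest of their chromosomes. For Itga11 the ratio was 1.47, for Fn1 it was 1.08 and for Col1a1 it was 0.909. The sign of the difference for Fn1 and Col1a1 changed with the flank and with the filter on enrichment: with flanks of 50 kb the share was 6.79% for Fn1 and 13.6% for Col1a1, and with a 2-fold filter it was 2.61% and 9.08%, 0.436 and 1.40 times the rest of the chromosome under the same filter.

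**Figure D1:**
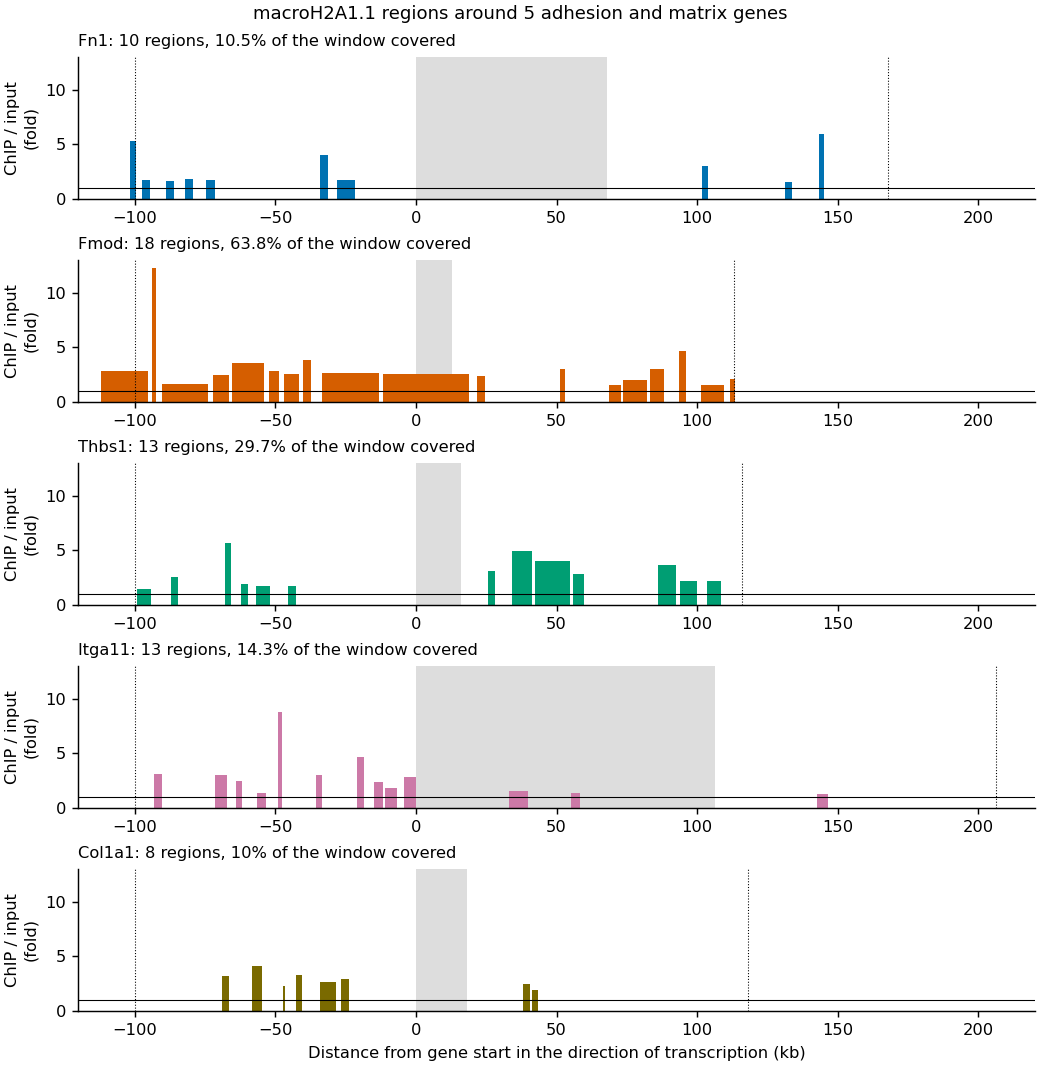
Regions around each gene, with the distance from the gene start in the direction of transcription on the horizontal axis (kb) and the ChIP over input enrichment as bar height (fold). Grey marks the gene span, dotted lines mark the ends of the window of 100 kb on either side, and the thin line marks an enrichment of 1. Bars cover the grey span of Fmod completely, 2 bars fall on that of Itga11 and another ends at its start, and none falls on those of Fn1, Thbs1 and Col1a1.

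Regions are unevenly spread along chromosomes, so each window was also set beside bins of its own length on the same chromosome, as a description. On chromosome 1, 921 bins of 213.0 kb had a median covered share of 2.25%, and 5 of them (0.543%) were covered as much as the Fmod window or more. For Thbs1 this was the case for 70 of 838 bins (8.35%), with a bin median of 2.22%. For Itga11 it was 101 of 402 bins (25.1%), for Fn1 227 of 732 (31.0%) and for Col1a1 206 of 556 (37.1%). Every window therefore lay above the median bin of its chromosome, also those of Fn1 and Col1a1, and the Fmod window was the only one of the 5 in the top 1% of bins. Between 29.4% (for Itga11) and 43.4% (for Fmod) of the bins held no region at all, which lowers these medians.

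The 3 parts of each locus were then compared. Gene bodies were covered at 10.4% of their summed 221.0 kb, upstream flanks at 34.6% and downstream flanks at 19.6%. Without Fmod these shares were 4.81%, 22.3% and 14.6%. Fmod gave 13 of the 23 kb covered in gene bodies and 83.4 of the 172.8 kb covered upstream. Downstream, Thbs1 gave the most, 43.8 of 97.8 kb, followed by Fmod with 39.4 kb, so that the share left without Fmod was mostly that of Thbs1. The body of Fmod was covered completely, that of Itga11 at 9.42%, and those of Fn1, Thbs1 and Col1a1 held no region. The upstream flank was covered more than the downstream flank at 4 of the 5 genes, with 83.4% against 39.4% for Fmod, 29.8% against 4.0% for Itga11, 21.8% against 6.20% for Fn1 and 17.4% against 4.40% for Col1a1. Thbs1 had the opposite order, with 20.4% upstream and 43.8% downstream. The order was not stable for Fn1 and Col1a1. It turned for Fn1 with a 2-fold filter, to 3.0% upstream and 4.0% downstream, and for Col1a1 with flanks of 200 kb, to 10.2% and 17.0%. Whether other genes of these chromosomes have the same order was not analysed here, since an mm9 annotation was not used.

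**Figure D2:**
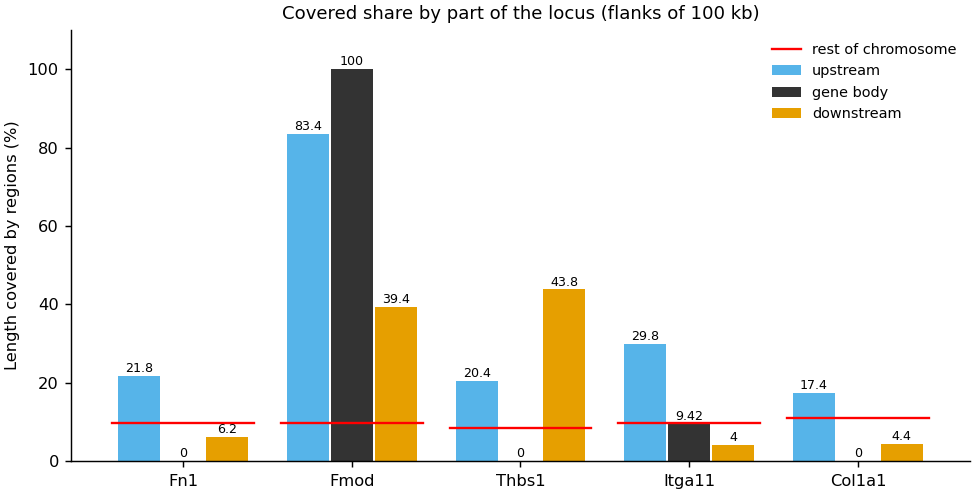
Share of length covered by regions (%) in the upstream flank of 100 kb, the gene body and the downstream flank of 100 kb of each locus, with the value printed above each bar. Red lines give the covered share of the rest of the same chromosome, between 8.54% and 11.0%. The body of Fmod is at 100% while the bodies of Fn1, Thbs1 and Col1a1 are at 0.

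Col1a1 lies on the plus strand of chromosome 11, with a span of 18 kb from 94797000 to 94815000. Its window held 8 regions, fewer than any other of the 5, with 522 ChIP reads and 130 input reads in all. Of these, 6 lay upstream, at 23.8 to 68.8 kb from the gene start, and 2 lay downstream. The nearest region upstream, from 94770201 to 94773200, had 71 ChIP reads and 17 input reads and was enriched 2.88-fold (1.68 to 5.22). The widest, from 94763001 to 94768600, spanned 5.6 kb and reached 2.59-fold (1.78 to 3.85) with 135 reads in ChIP and 36 in input. The strongest region of the locus, from 94738801 to 94742200, reached 4.09-fold (2.31 to 7.80) with 83 and 14 reads. The regions downstream of Col1a1 were 38.2 and 41.4 kb past the gene start, with 2.44-fold (1.35 to 4.66) and 1.93-fold (1.05 to 3.75). Upstream regions as a group were enriched 2.95-fold (2.36 to 3.70) and downstream regions 2.18-fold (1.44 to 3.41), and the ratio of the 2 values, 1.35 (0.816 to 2.18), had an interval that included 1. The next protein-coding gene downstream in GRCm38.p6 is Sgca, which encodes the muscle membrane protein alpha-sarcoglycan.

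Fn1 is on the minus strand of chromosome 1, so that its upstream flank is at higher coordinates. Its span of 67.8 kb, from 71632000 to 71699800, held no region, and it sat in a stretch of 123.4 kb without any, from 71598001 to 71721400. The window held 10 regions with 574 ChIP reads and 188 input reads. The nearest upstream region was 21.6 kb from the gene start, was the widest of the locus at 6.60 kb, and was enriched 1.72-fold (1.21 to 2.46), from 117 reads in ChIP and 47 in input. It was followed at 31.4 kb by a region of 2.60 kb at 3.99-fold (1.95 to 9.20), with 52 reads in ChIP and 9 in input. Another 5 regions formed a series at 71.4 to 101.8 kb upstream, at the edge of the window. Of these, 4 were enriched between 1.63-fold and 1.85-fold, and the outermost, from 71799401 to 71801600, reached 5.29-fold (2.25 to 15.2) from 46 ChIP reads and 6 input reads. The strongest region of the Fn1 locus lay downstream, between 71554601 and 71556400, where 43 ChIP reads stood against 5 of input (5.93-fold, 2.35 to 19.2). Nearest past the gene was a region from 71595801 to 71598000 with 48 and 11 reads (3.01-fold, 1.54 to 6.43). The regions of Fn1 that exceeded 5-fold thus held 5 and 6 input reads and had wide intervals. The neighbouring protein-coding genes in GRCm38.p6 are Mreg upstream and Atic downstream.

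Thbs1 lies on the plus strand of chromosome 2, from 117937000 to 117953000, and its body also held no region. The list was empty over 68.4 kb around it, from 42.6 kb before the gene start to 9.80 kb past the gene end. The nearest upstream region, from 117891401 to 117894400, was enriched 1.71-fold (1.01 to 2.98), with 52 reads in ChIP and 21 in input. The nearest past the start, from 117962801 to 117965200, began 25.8 kb from it and reached 3.07-fold (1.58 to 6.55) with 49 and 11 reads. The 6 upstream regions summed to 393 reads in ChIP and 145 in input, or 1.87-fold (1.54 to 2.28). The 7 downstream regions summed to 1105 and 223 reads, or 3.42-fold (2.96 to 3.96). The downstream value was 1.83 times the upstream one, with an interval from 1.43 to 2.34. This ratio compares listed regions, each of which was called because ChIP exceeded input, and not the flanks as a whole, and its interval leaves out that selection. The same holds for the ratios between parts of the other loci. Beside it, ChIP reads per kb of region were higher downstream than upstream (25.2 and 19.3), and input reads per kb were lower (5.09 and 7.11). Among the downstream regions, 3 formed a group with 800 to 1000 bp between them, at 34.2 to 59.8 kb past the gene start. The first of these, from 117971201 to 117978400, held 294 reads in ChIP and 41 in input (4.95-fold, 3.56 to 7.04). The next, from 117979201 to 117991800, was the widest of the locus at 12.6 kb, with 314 and 54 reads (4.01-fold, 3.00 to 5.46). The last had 74 and 18 reads and 2.84-fold (1.68 to 5.04). Farther out, at 86.0 kb, a region of 6.60 kb reached 3.65-fold (2.42 to 5.67). The highest single value at Thbs1, 5.63-fold (2.41 to 16.1), was in a narrow upstream region of 2.40 kb with 49 ChIP reads and 6 input reads, and its interval overlapped those of all 3 regions of this group. The next protein-coding genes in GRCm38.p6 are Rasgrp1 upstream and Fsip1 downstream.

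Fmod, on the plus strand of chromosome 1 from 135933000 to 135946000, was the only one of the 5 genes that lay wholly within a region. This region extended over 30.6 kb, from 135921201 to 135951800, began 11.8 kb before the gene start and ended 5.80 kb past the gene end. Its 884 ChIP reads stood against 242 of input, which gave 2.52-fold (2.18 to 2.92). The neighbouring region upstream, from 135899601 to 135920000, spanned 20.4 kb and had 493 and 131 reads (2.60-fold, 2.14 to 3.17). With 8 more regions farther out, and the part of the gene-wide region that precedes the start, the upstream flank was covered at 83.4%. The single strongest region of all 62 lay there, between 135839001 and 135840600, with 89 reads in ChIP and 5 in input over 1.60 kb, which gave 12.3-fold (5.07 to 38.7). Downstream of Fmod the cover was broken: after a region of 2.60 kb at 21.8 kb past the start, the next began at 51.4 kb and a denser group at 68.8 kb. The upstream regions (2.58-fold, 2.36 to 2.83) and the region over the gene, counted with its overhang, had a ratio of 1.03, with an interval from 0.863 to 1.22 that included 1. Downstream regions were enriched 2.11-fold (1.84 to 2.42), and the upstream value was 1.23 times as high (1.04 to 1.44). The neighbouring protein-coding genes in GRCm38.p6 are Prelp, which encodes another small leucine-rich repeat proteoglycan, upstream, and Btg2 downstream.

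Itga11, on the plus strand of chromosome 9 from 62525600 to 62631800, had its regions mostly before the gene. Of its 13 regions, 10 were upstream, which summed to 721 reads in ChIP and 191 in input, or 2.60-fold (2.22 to 3.07). The closest ran from 62521401 to 62525600 and so ended on the first base of the span, which is rounded to 100 bp, and it was counted as upstream. With 134 and 33 reads it was enriched 2.80-fold (1.90 to 4.23). Further regions followed at 6.80, 11.8 and 18.4 kb upstream, with 1.79-fold (1.16 to 2.83), 2.36-fold (1.40 to 4.17) and 4.70-fold (2.48 to 9.82). The highest value, 8.74-fold, came from 38 ChIP reads and 3 input reads in a region of 1.60 kb, 47.6 kb upstream, and had an interval from 2.77 to 44.2. Inside the gene, 2 regions of 6.80 and 3.20 kb lay 33.0 and 55 kb past the start. The former had 138 ChIP reads and 64 input reads and was enriched 1.49-fold (1.1 to 2.03), and the latter had 59 and 31 reads and 1.31-fold (0.836 to 2.10). A single region downstream had 75 and 41 reads and 1.26-fold (0.851 to 1.89). Upstream regions were 1.82 times as enriched as those in the body (1.34 to 2.46) and 2.06 times as the one downstream (1.33 to 3.17). Input reads per kb moved with this difference, at 6.41 upstream, 9.50 in the body and 10.2 downstream, while ChIP reads per kb were 24.2, 19.7 and 18.8, and the part of input density in the result was not tested. The neighbouring protein-coding genes in GRCm38.p6 are Coro2b upstream and Fem1b downstream.

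**Figure D3:**
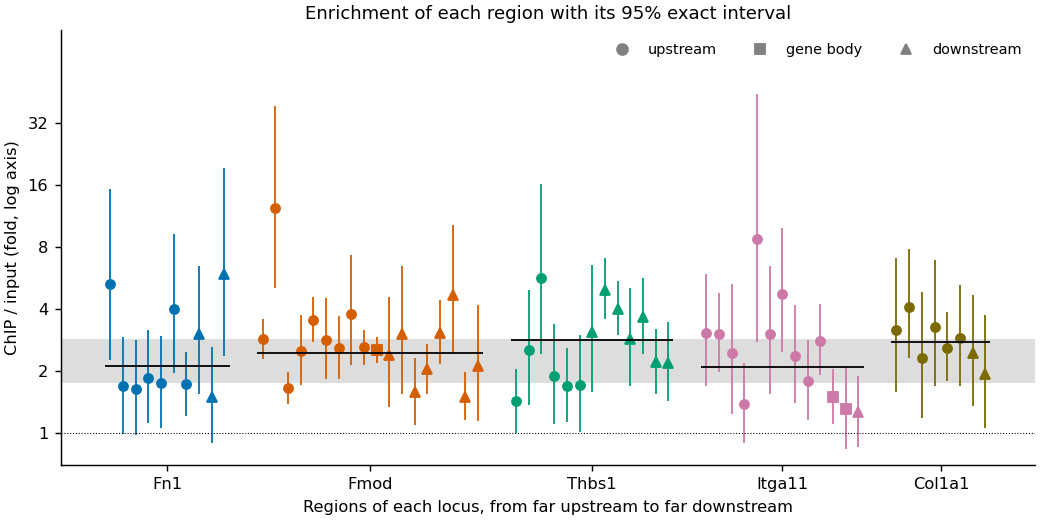
Enrichment of ChIP over input (fold, log axis) of all 62 regions, ordered within each locus from far upstream to far downstream, with 95% exact intervals as vertical lines. Circles, squares and triangles are upstream, gene body and downstream regions, black lines are the enrichment of each locus over its summed reads, grey is the range between the quartiles of all 50887 regions (1.75-fold to 2.86-fold), and the dotted line marks 1. The downstream regions of Thbs1 lie above most of its upstream regions, and the body and downstream regions of Itga11 are among its lowest.

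Taking each locus as a whole, the summed reads gave 2.81-fold for Thbs1 (2.50 to 3.16), 2.77-fold for Col1a1 (2.28 to 3.38), 2.45-fold for Fmod (2.29 to 2.62), 2.11-fold for Fn1 (1.78 to 2.50) and 2.09-fold for Itga11 (1.85 to 2.38). The neighbours in this order were close. Thbs1 and Col1a1 had a ratio of 1.01 (0.804 to 1.27), Col1a1 and Fmod one of 1.13 (0.920 to 1.40), Fmod and Fn1 one of 1.16 (0.969 to 1.39), and Fn1 and Itga11 one of 1.01 (0.814 to 1.24), and each of these intervals included 1. Of all 10 pairs of loci, 6 had an interval without 1, unadjusted for the number of pairs. The largest ratio was that of Thbs1 to Itga11, 1.34 (1.13 to 1.59). Coverage and enrichment did not rank the loci alike, since Col1a1 was the least covered and among the most enriched.

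When these values were set against the regions on the rest of the same chromosome, Thbs1 was 1.31 times (1.17 to 1.47), Col1a1 1.29 times (1.06 to 1.58) and Fmod 1.13 times (1.06 to 1.21) as enriched. For Fn1 the ratio was 0.968 (0.820 to 1.15) and for Itga11 0.903 (0.796 to 1.03), and both intervals included 1. Reads per kb of region moved with these ratios in different ways. At Fmod, ChIP reads per kb were 27.5 against 21 on the rest of chromosome 1, with input at 7.73 against 6.67. At Thbs1 and Col1a1, ChIP density was 23.3 and 23.9 (rest of chromosome 21.1 and 21.5), and input density was below the rest, at 5.73 against 6.76 and 5.96 against 6.91. At Itga11, input density was above it, at 7.47 against 6.30. All these are values of regions that were listed because ChIP exceeded input, so they describe the listed regions and not the sequence between them.

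**Figure D4:**
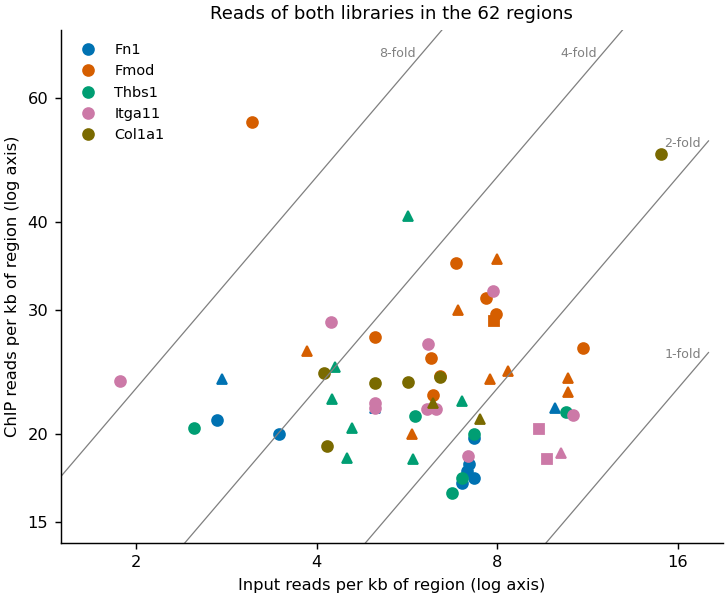
ChIP reads per kb against input reads per kb (both log axes) for the 62 regions, coloured by locus, with circles for upstream, squares for gene body and triangles for downstream regions. Grey lines mark equal enrichment of 1-fold, 2-fold, 4-fold and 8-fold. ChIP values of 59 regions lie between 16 and 36 reads per kb, and 9 of the 10 regions at 4-fold or more have under 5 input reads per kb, the other being the downstream region of Thbs1 with 5.69.

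Over all 62 regions the enrichment was 2.45-fold (2.33 to 2.57) from 7656 ChIP reads and 2158 input reads, and the median over regions was 2.54-fold, beside 2.21-fold for the whole list. Of the 62 regions, 43 (69.4%) were enriched at least 2-fold, against a background of 61.3% of all listed regions. By locus these were 15 of 18 regions for Fmod, 9 of 13 for Thbs1, 8 of 13 for Itga11, 7 of 8 for Col1a1 and 4 of 10 for Fn1. At least 4-fold was reached by 10 regions (16.1%, background 8.34%), 3 of them at Thbs1, 2 each at Fn1, Fmod and Itga11, and 1 at Col1a1. In an exact binomial test that takes the error of the input count into account, 58 regions (93.5%) kept an FDR of 0.05 or less, beside 90.1% of the list. All these regions were listed because ChIP exceeded input, so passing the same comparison again is no independent evidence of enrichment, and the test serves here only to name the regions with the weakest counts. The 4 regions that did not keep it were 1 of Fn1, enriched 1.5-fold, and 3 of Itga11, enriched between 1.26-fold and 1.38-fold, among them the second region within the gene. The regions of the 5 loci had a median width of 3000 bp, with a range from 800 to 30600 bp, and the list had a median of 3600 bp. A width over 10 kb was found in 6 of them (9.68%, against 5.35% of the list), of which 5 were at Fmod and 1 at Thbs1.

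A gene without a region in its body lies, by definition, in a single stretch without a region that spans it. For Fn1, Thbs1 and Col1a1 this stretch began 21.6, 42.6 and 23.8 kb before the gene start. It ended 34.0, 9.80 and 20.2 kb after the gene end. These stretches of 123.4, 68.4 and 62 kb were longer than 94.8%, 89.4% and 88.6% of the separations between neighbouring regions on their chromosomes. Each had to be at least as long as its gene, so these ranks were partly fixed in advance. Such stretches take up much of each chromosome, however. Separations of that length or more made up 62.1% of chromosome 1 for Fn1, 73.3% of chromosome 2 for Thbs1 and 66.8% of chromosome 11 for Col1a1, so that a position within one is the more common case. The list gives no reads for these stretches, and the absence of a call there is not a measurement of absence.

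The surroundings of the loci differed in extent. The cover around Fmod was 75.8% within 20 kb of the gene and stayed at 58.0% with flanks of 200 kb, and it was 28.1% with 500 kb and 23.8% with 1000 kb. That around Thbs1 rose from 7.5% within 20 kb to 25.2% within 50 kb and remained between 26.9% and 30.2% from 100 to 1000 kb. Around Fn1 it went from 0 within 20 kb to 10.5% at 100 kb and 25.3% at 200 kb, where 28 regions were reached. Around Itga11 it lay between 11.9% and 22.5% at all flanks, and around Col1a1 between 10.00% and 13.7% from 50 kb on. With 1000 kb, all 5 genes were in surroundings covered more than the rest of their chromosome outside the window of 100 kb.

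**Figure D5:**
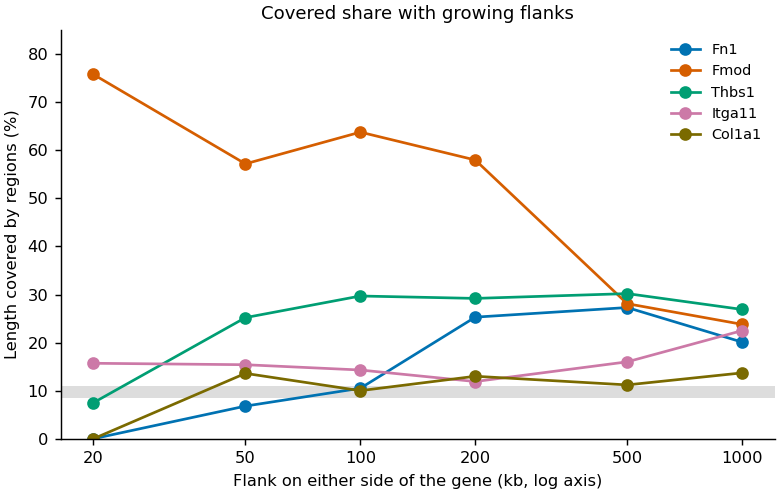
Share of length covered by regions (%) in windows that hold the gene and a flank of 20 to 1000 kb on either side (log axis), 1 line per locus. The grey band spans the covered share of the rest of the 4 chromosomes, 8.54% to 11.0%. Fmod starts at 75.8% and falls to 23.8%, whereas Fn1 and Col1a1 start at 0.

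The study followed some of these loci by quantitative PCR of precipitated DNA, and its 5 amplicons were placed on the list by their mm9 positions. The amplicons that fell in a region, 3 of the 5, did not fall in the strongest one of their locus. The region of the Fn1 amplicon ranked 7 of 10 by enrichment and was the widest of its locus. That of the Itga11 amplicon, at the gene start, ranked 6 of 13, and that of the third Col1a1 amplicon ranked 6 of 8. The first and second Col1a1 amplicons lay in no listed region. Both fell in the stretch of 62 kb without a region around Col1a1, the first upstream of the gene and the second within it. The list holds no reads there, so it does not bear on whether macroH2A1.1 was present at them. By PCR, the study reported clear macroH2A1.1 enrichment at all of its Col1a1 amplicons, lost on knockdown of macroH2A1.1. The PCR measurements were not analysed here. The amplicons were chosen by the study and are not a sample of the loci.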

How the data were processed

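The members and the lists were chosen with earlier results of these data known. ChIP-seq of macroH2A1.1 and of input chromatin was done with 1 library each, so p-values compare these libraries alone. Per the labels, Bowtie2 2.0.6 and mm9 were used. The authors deposited 1 region list with read counts of either library, the log2 of ChIP over input after division by a library factor of 1.45, and the FDR, an adjusted p-value of the caller. The methods name SICER as the caller, whereas the deposited list carries epic in its name. Starts in the list step by 200 bp and separations are 800 bp or more, so the stated window of the methods does not describe it.

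Folds, intervals (95% Clopper-Pearson) and ratios of folds (exact conditional odds ratios) were computed in Python 3.11.15 with scipy 1.17.1 and pandas 2.3.3. The binomial FDR was adjusted by Benjamini-Hochberg over the listed regions and tested on simulated data. No library totals are in the list, so total depth is unknown. The region reads of the 5 loci range from 38 to 884 (ChIP) and 3 to 242 (input). PCR reads are not independent molecules. A region belongs to the part of the locus that holds most of it. All 5 genes were named, with, for each, regions over the span, nearest to the start, strongest and widest. Gene spans are rounded mm9 positions. Their lengths (13.0 to 106.2 kb) were checked against GENCODE genes in GRCm38 (11.0 to 106.2 kb), which also gave strands. Chromosome length is the highest region end. Alternatives were other FDR, fold, flank, overlap and joining rules.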

Additional observations from a re-analysis of the deposited data

How the results depend on the processing

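No paired analysis was possible because there is only 1 ChIP library and 1 input library. The number of regions was 30 with flanks of 50 kb and 126 with flanks of 200 kb, which follows from the length searched. The enrichment over all regions was 2.96-fold with a 2-fold filter, which removes weak regions, 2.59-fold with flanks of 50 kb and 2.17-fold with flanks of 200 kb, and it lay between 2.37-fold and 2.51-fold with 1 locus left out. Of the 2 genes with a region over the body, 1 (Itga11) was left when most of the region had to be inside the span, because the region over Fmod is wider than the gene. With the 2-fold filter the count for Itga11 rested on the single base by which the region at the gene start touches the rounded span. The other 30 of the 36 recomputed main values stayed within 1.5 times the count or within the interval. The covered share relative to the rest of the chromosome changed side for Fn1 with the 2-fold filter (2.61%) and flanks of 50 kb (6.79%), and for Col1a1 with the 2-fold filter (9.08%), flanks of 50 kb (13.6%) and 200 kb (13%), and joining within 10 kb (23.0%). It changed side for none of Fmod, Thbs1 and Itga11 under the 8 settings run for each. Leaving out a locus, and the settings for single loci other than a longer or shorter span, were chosen after seeing the data. Counts of 3 to 6 input reads limit the strongest regions.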

Other observations

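The windows end 100 kb from each gene, and regions continued beyond most of their edges. The nearest region outside lay 199 bp below the window of Itga11 (3.31-fold, from 48 ChIP reads and 10 input reads) and 1600 bp above that of Fmod (2.38-fold, 69 and 20 reads). Outside the windows of Fn1 and Thbs1 the nearest regions were 5799 bp and 3199 bp away, with 2.23-fold and 1.43-fold. On the downstream side of Itga11 the next region was 118600 bp past the window, and on that of Col1a1 it was 53000 bp past it, with 4.83-fold (84 and 12 reads) and 1.3-fold (79 and 42 reads). The downstream stretch without a region thus extended past the window at both genes. With flanks of 200 kb, the downstream flank of Itga11 was covered at 2.00% and its upstream flank at 23.0%. For Col1a1 these shares were 17.0% and 10.2%, so its downstream side was not the poorer one at that length.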
